A study of Mus musculus with 70 samples.

Results

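The comparison is between tissue punches of the dorsal vagal complex (DVC) and tissue punches of the nucleus of the solitary tract (NTS), both in the caudal brainstem of the adult mouse. The members were taken by sample label, as every library labelled DVC (3 libraries) and every library labelled NTS (4 libraries), which makes 7 of the 70 samples in the series. The series measured polyadenylated RNA by sequencing in 57 libraries from 18 adult brain regions, 9 libraries from 4 embryonic regions and 4 libraries from mouse embryonic stem cells. All 7 DVC and NTS libraries came from male C57BL/6 mice (substrain C57BL/6NTac in the study's methods) at postnatal day 56, and no treatment set them apart. The tissue was taken on both sides from frozen coronal sections, and each library pooled tissue from several mice. The labels do not tie a library to named mice, so the p-values measure only the spread between these pools, part of which may be technical. By the study's methods, fewer adult mice were used in total than 7 pools without shared mice would need. Some of these pools therefore share mice, and the labels do not say which. The test took the pools as independent. The study's supplement gives the preparation batches of each region without tying them to single libraries. Batch as such therefore could not enter the test. In the supplement's atlas drawings, which are by region and not by library, the NTS sections lie rostral to the DVC section, so the level of the section and the nuclei that DVC adds to NTS cannot be told apart.

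The dorsal vagal complex holds the NTS itself, the dorsal motor nucleus of the vagus and the area postrema. The NTS is the first central relay of sensory fibres from the gut, heart and lungs. The motor nucleus holds cholinergic neurons whose axons run in the vagus nerve to the viscera, and the area postrema lies outside the blood-brain barrier and senses circulating hormones and toxins. The comparison therefore asks which RNAs differ between a punch labelled as the complex and a punch aimed at its sensory nucleus. How much of each nucleus a DVC punch held was not tested.

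Transcript counts estimated by the authors were summed per gene and tested with edgeR's quasi-likelihood test, and levels are given as the authors' TPM per gene, a share of all transcripts that is scaled to the same total in each library. The total estimated count was 15842811, 19999209 and 16029155 in DVC 1, 2 and 3. It was 17385568, 16920940, 16730782 and 17408013 in NTS 1, 2, 3 and 4. The libraries of both regions were thus sequenced to a like depth. The share of TPM from mitochondrial genes was 8.12%, 7.78% and 7.08% in DVC and 8.43%, 8.96%, 8.80% and 12.4% in NTS, so every DVC library lay below every NTS library. Its part in the differences below was not tested. Leaving the mitochondrial genes out kept 21 of the 25 calls given below. Across the genes tested, the log2 normalized counts of a DVC and an NTS library correlated with a Pearson r between 0.966 and 0.976. The range was 0.974 to 0.978 for pairs of DVC libraries and 0.965 to 0.979 for pairs of NTS libraries. These are correlations across genes, which are not independent replicates, and they show that a DVC library was nearly as much like an NTS library as like another DVC library.

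Of 15479 genes tested, 20 were higher in DVC (0.129% of genes tested) and 5 were lower (0.0323%), at an adjusted p under 0.05 by edgeR's quasi-likelihood test with Benjamini-Hochberg adjustment. At an unadjusted p under 0.05 the number was 1901 (12.3% of genes tested), the share beside which each list's count at that threshold is to be read. DESeq2, an alternative, called 210 of the 15837 genes to which it gave an adjusted p higher (1.33%) and 174 lower (1.1%), the shares beside which its list counts stand. Where no tool is named below, a call or a pass is by edgeR. Of the genes described below that edgeR did not call, DESeq2 called Calcb, Cckar, Chat, Cyp26b1, Gal, Gcg, Hoxa3, Hoxa6, Hoxb2, Hoxc6 and Hoxd4. It also called Lypd1, Mbp, Mnx1, Npy, Pdyn, Penk, Prph and Slc17a7. The median log2 fold change over all genes tested was 0.0038. The number of calls moved with single libraries: the 25 calls became 15 without DVC 1, 15 without DVC 2, 12 without NTS 2 and 44 without NTS 4. The calls of higher genes became 13 without DVC 2, 11 without NTS 2 and 40 without NTS 4. The calls of lower genes became 1 without DVC 1, 2 without DVC 2, 3 without NTS 1, 1 without NTS 2 and 3 without NTS 3. Among the 15147 tested genes that have a gene TPM, every DVC library lay above every NTS library for 1638 genes (10.8%) and below every NTS library for 383 genes (2.53%). The TPM scale itself leans to DVC. Its median log2 fold change was 0.064 by limma on log2(TPM + 0.5), another alternative, against 0.0038 on the counts. These shares therefore do not by themselves mean more RNA in DVC, and the cause of the lean was not tested. Consecutive library numbers, used as a block in an alternative, gave 11 calls (10 higher, 1 lower), of which 10 were among the 25. Lost there were, among others, Hoxb6 (adjusted p 0.0521), Hsd11b1 (0.0597), Gm15267 (0.0885) and Olfr1062 (0.102). Whether these numbers follow the batches was not tested. With the replicate number as a block, calls outside Hox genes were 0. The calls of Hoxb8, Hoxc5, Npffr1, Nr2f2 and Hsd11b1 then just missed the threshold (adjusted p 0.050004 each), and those of Prok1 (0.0558) and Olfr1062 (0.0591) missed it too. Bulk tissue was measured throughout, so fewer cells of a type and less RNA per cell cannot be told apart.

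Of the 20 higher genes, 8 were Hox genes. Hox genes encode homeodomain transcription factors that stand in 4 clusters, A to D. The position of a gene in its cluster is its paralog group, the number in its name. In the embryo, genes of low paralog groups are switched on up to rostral levels of the hindbrain, and genes of higher groups only further caudally, in the most caudal hindbrain and the spinal cord. Much of this order is kept in adult neurons, where it gives a molecular address along the rostrocaudal axis.

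Hoxb5 had 87.8, 91.0 and 60.1 TPM in DVC 1, 2 and 3 and 3.14, 4.26, 5.81 and 7.08 TPM in NTS 1, 2, 3 and 4. Hoxa5 had 36.1, 39.5 and 28.6 TPM in DVC and 2.13, 3.23, 4.24 and 2.38 TPM in NTS, in the same order of libraries. For both genes all 3 DVC libraries were high and all 4 NTS libraries low, with a wide gap and no overlap. The log2 fold change of Hoxb5 was 3.92 (SE 0.25, adjusted p 0.000864 by edgeR's quasi-likelihood test with Benjamini-Hochberg adjustment) and that of Hoxa5 was 3.48 (SE 0.22, adjusted p 0.000864). Hoxb5 lies on chromosome 11 from 96303336 to 96306121 in GRCm38, on the plus strand. Hoxa5 lies on chromosome 6 from 52201754 to 52204587, on the minus strand, where the long transcript models of Hoxa3 and of Gm28308 overlap it. Hoxc5, the remaining member of paralog group 5, had 23.4, 20.4 and 14.1 TPM in DVC and 2.47, 1.40, 3.06 and 3.17 TPM in NTS (log2 fold change 2.78, SE 0.26, adjusted p 0.00494). Its annotated span overlaps those of Hoxc6, Hoxc8, Hoxc9 and Hoxc10.

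The genes of paralog group 4 were present in both regions and higher in DVC. Hoxc4 had 46.1, 48.4 and 35.7 TPM in DVC and 11.98, 10.3, 7.70 and 11.9 TPM in NTS. Hoxb4 had 17.3, 23.3 and 15.4 TPM in DVC and 3.77, 3.36, 2.97 and 4.72 TPM in NTS. Hoxa4 had 21.3, 29.6 and 21.7 TPM in DVC and 8.37, 9.11, 6.03 and 9.002 TPM in NTS. None of these genes overlapped between the groups, and NTS kept a clear level of each. Their log2 fold changes were 1.99 for Hoxc4 (SE 0.16, adjusted p 0.0034), 2.27 for Hoxb4 (SE 0.19, adjusted p 0.0034) and 1.52 for Hoxa4 (SE 0.18, adjusted p 0.014). The call of Hoxa4 was lost without DVC 2 (log2 fold change 1.33, adjusted p 0.052) and without NTS 2 (1.57, adjusted p 0.0539). Hoxd4, with a log2 fold change of 1.14, did not pass (adjusted p 0.145), although its groups did not overlap either.

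Beyond paralog group 5, the genes were almost undetected in NTS. Hoxb6 had 11.2, 11.1 and 8.36 TPM in DVC, against 0.055 TPM in NTS 1, 0.225 TPM in NTS 4 and 0 in NTS 2 and NTS 3. Hoxb8 had 4.12, 10.3 and 3.85 TPM in DVC, against 0.042 TPM in NTS 3 and 0 in the other NTS libraries. Every DVC library thus held RNA of both genes, and NTS held a trace. Summed over the libraries of a group, Hoxb6 had 393 estimated counts in DVC and 5 in NTS, a ratio per total count of 102 with a 95% exact interval of 44.1 to 321. Hoxb8 had 290 counts in DVC and 1 in NTS, a ratio of 383 with an interval of 68.1 to 15200. These intervals cover counting error only. Both genes were called higher, Hoxb6 at an adjusted p of 0.0034 and Hoxb8 at an adjusted p of 0.00642, and the call of Hoxb8 was lost without NTS 3 (adjusted p 0.118). Hoxb7 had too few counts to be tested, with 28 in DVC and 0 in NTS, which is at least 12.2-fold higher in DVC when the NTS group is set to a floor of 3 counts. Hoxa6 and Hoxc6 had log2 fold changes of 4.20 and 3.09 and did not pass (adjusted p 0.0779 and 0.101).

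Over the whole family, 27 Hox genes were listed, of which 18 had enough counts to be tested. Of these 18 genes, 8 were called higher and 0 lower, beside 0.129% and 0.0323% over all genes tested. The 8 calls became 13 with DESeq2, 6 with the replicate number as a block, 4 with the 57 adult libraries in 1 model, 3 with all 70 libraries in 1 model and 2 without DVC 1 and NTS 1 together, with 0 lower in each. The groups did not overlap, with DVC above, for 16 of the 18 tested genes, beside 10.8% over all tested genes with a TPM, and for 18 of all 27. The median log2 fold change of the tested Hox genes was 1.76, beside 0.0038 over all genes. It is 1.76 as well with Hoxb8 at the lower end of its counting interval, which still lies above the median and so cannot move it. It ranged from 1.61 to 2.13 when single libraries were left out. The 7 tested genes of paralog groups 1 to 3 had log2 fold changes between -0.30 and 0.87, with 0 called by edgeR. Among them DESeq2 called Hoxb2 (adjusted p 5.39e-05) and Hoxa3 (adjusted p 0.0455) higher. For 5 of the 7 the groups did not overlap, with DVC above. In paralog group 4, 3 of 4 tested genes were called, with log2 fold changes between 1.14 and 2.27. In paralog groups 5 and 6, 4 of 6 were called, with log2 fold changes between 2.78 and 6.52. A filter on low counts keeps a gene that is high in only 1 region, so these tested members are those with RNA in at least DVC.

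**Figure D1:**
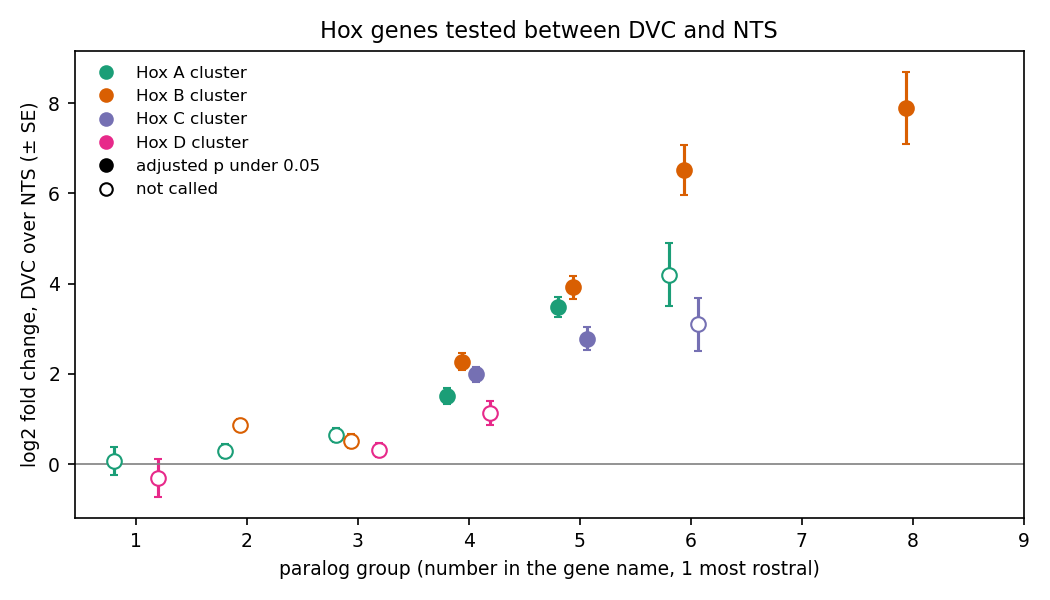
Log2 fold change of DVC over NTS (± SE, edgeR, 3 against 4 libraries) for the 18 tested Hox genes against their paralog group, coloured by cluster, with filled points for adjusted p under 0.05. Genes of groups 1 to 3 lie between -0.30 and 0.87, and those of groups 5 and 6 between 2.78 and 6.52.

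Summed over the 27 listed genes, Hox RNA was 364, 414 and 318 TPM in DVC 1, 2 and 3 and 114, 112, 87.1 and 123 TPM in NTS 1, 2, 3 and 4. The total differed less than the single genes of groups 5 and above because the genes of groups 1 to 3 make up much of it in NTS. Hoxb3, for example, had a mean of 37.2 TPM in DVC and 23.6 TPM in NTS, and Hoxd3 had 26.5 and 19.02 TPM.

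For the called Hox genes, the sequence at the gene start is shown because all were higher in DVC and known regulators of the clusters bind such sites. Any part of these regulators in the difference was not tested. RefSeq promoter entries (GRCm38.p6, 250 bases before to 50 after the start) matched 4 of the 8 called Hox genes. They were searched on both strands for a composite site of Pbx and Hox proteins (TGATNNAT), a half-site of nuclear receptors such as the retinoic acid receptors (AGGTCA) and a Cdx motif (TTTATG). Capitals mark the matches, and each sequence is written 5′ to 3′ on the strand of its gene. The entries are chr6:52204538-52204837 (minus strand) for Hoxa5, chr11:96318017-96318316 (plus) for Hoxb4, chr15:103034145-103034444 (plus) for Hoxc4 and chr11:96281655-96281954 (plus) for Hoxb8.
Hoxa5: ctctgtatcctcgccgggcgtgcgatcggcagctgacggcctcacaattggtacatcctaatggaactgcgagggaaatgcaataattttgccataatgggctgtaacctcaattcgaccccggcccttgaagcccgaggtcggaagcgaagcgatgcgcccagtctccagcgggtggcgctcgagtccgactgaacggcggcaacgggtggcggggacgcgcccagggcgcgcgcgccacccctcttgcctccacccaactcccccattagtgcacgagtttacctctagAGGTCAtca
Hoxb4: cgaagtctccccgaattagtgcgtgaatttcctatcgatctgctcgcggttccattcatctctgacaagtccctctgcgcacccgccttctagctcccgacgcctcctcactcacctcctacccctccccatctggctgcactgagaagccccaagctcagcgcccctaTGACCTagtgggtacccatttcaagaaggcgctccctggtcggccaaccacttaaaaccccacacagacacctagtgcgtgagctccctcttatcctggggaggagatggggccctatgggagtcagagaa
Hoxc4: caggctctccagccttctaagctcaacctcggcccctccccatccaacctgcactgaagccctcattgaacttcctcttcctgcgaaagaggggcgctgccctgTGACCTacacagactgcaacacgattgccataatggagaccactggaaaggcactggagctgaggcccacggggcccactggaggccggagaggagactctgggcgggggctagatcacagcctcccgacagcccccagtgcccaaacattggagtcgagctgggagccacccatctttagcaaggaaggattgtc
Hoxb8: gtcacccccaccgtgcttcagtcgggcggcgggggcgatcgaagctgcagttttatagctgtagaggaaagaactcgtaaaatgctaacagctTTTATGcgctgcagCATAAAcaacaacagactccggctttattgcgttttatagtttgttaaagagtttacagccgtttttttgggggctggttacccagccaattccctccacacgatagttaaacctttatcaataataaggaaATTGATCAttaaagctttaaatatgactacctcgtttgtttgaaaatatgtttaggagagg

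Hoxa5, Hoxb4 and Hoxc4 each held 1 match to the nuclear receptor half-site, which 16.3% of all 32851 promoters hold. Hoxb8 held 1 match to the Pbx-Hox composite, found in 8.85% of promoters, and 2 matches to the Cdx motif, found in 11.9%. A match describes letters in this window and is not a measured binding site.

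Across the series, DVC and embryonic hindbrain had the 2 highest means of the 24 groups for each of the 8 called Hox genes. DVC ranked 1 for Hoxb4, Hoxb6, Hoxc4 and Hoxc5, and embryonic hindbrain for the others. Mean Hoxb5 was 89.1 TPM in embryonic hindbrain (lowest 0.471, highest 147, n = 3), 79.7 TPM in DVC and 5.07 TPM in NTS. The next region was the cerebellar nuclei at 1.94 TPM, the highest of the 16 other adult regions. Mean Hoxa5 followed the same order, with 56.1 TPM in embryonic hindbrain (lowest 0.298, highest 85.0), 34.8 TPM in DVC, 3.00 TPM in NTS and 2.58 TPM in the cerebellar nuclei. The embryonic hindbrain libraries spread so widely that they and DVC do not differ beyond their spread. NTS and the cerebellar nuclei overlap for both genes, with single libraries of the latter up to 4.46 TPM for Hoxb5 and 5.46 TPM for Hoxa5. Hoxb8 averaged 15.4 TPM in embryonic hindbrain and 6.10 TPM in DVC, and at most 0.165 TPM in another adult region (the parabrachial nucleus). These levels across regions are a description with no test.

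**Figure D2:**
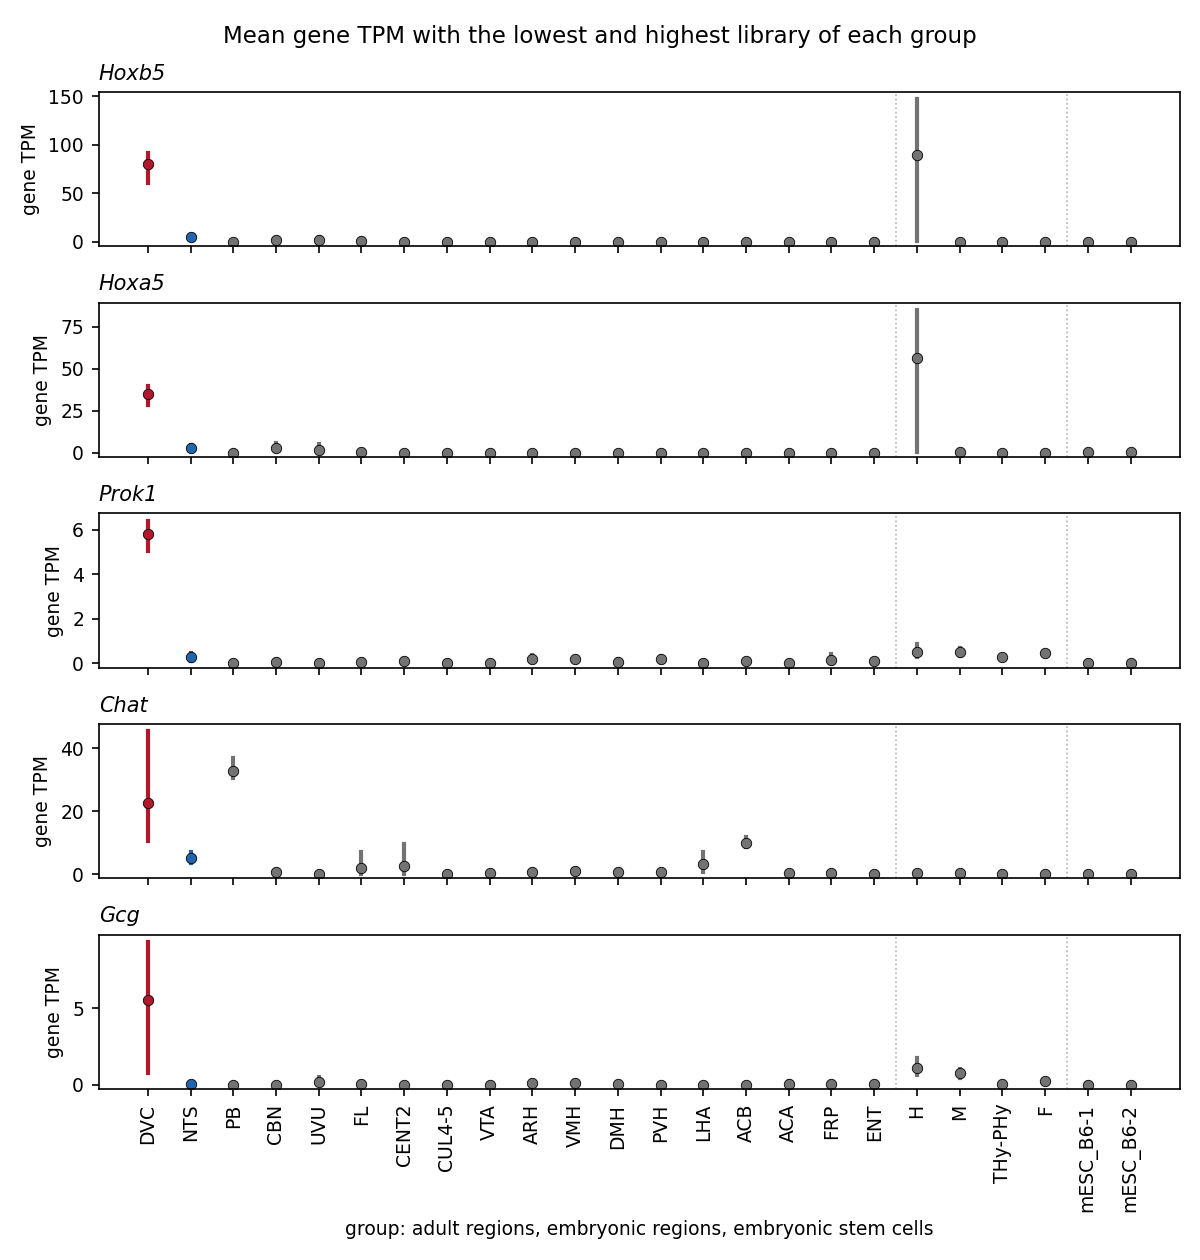
Gene TPM of 5 genes in the 24 groups of the series, with a point at the mean and a line from the lowest to the highest library, and DVC in red and NTS in blue. Hoxb5 and Hoxa5 are high in DVC and embryonic hindbrain (H), where 1 library is near 0, and Prok1 and Gcg are highest in DVC.

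Apart from the Hox genes, 12 genes were called higher. The largest difference among those with an average of at least 1 TPM was in Prok1, which encodes prokineticin 1, a secreted ligand of G protein-coupled receptors. It had 5.91, 6.40 and 5.03 TPM in DVC and 0.443, 0.106, 0.322 and 0.292 TPM in NTS. All DVC libraries lay close together and far above all NTS libraries. The log2 fold change was 3.93 (SE 0.35, adjusted p 0.00457). No other group of the series reached this level: embryonic hindbrain had a mean of 0.532 TPM, and the highest other adult region, the arcuate nucleus, had 0.205 TPM. The gene shares its position with the transcript model A630076J17Rik.

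Npffr1 encodes a receptor for RF-amide peptides such as neuropeptide FF. It had 11.2, 22.0 and 16.6 TPM in DVC and 3.97, 3.63, 3.47 and 3.00 TPM in NTS (log2 fold change 2.18, SE 0.21, adjusted p 0.00563). The DVC libraries were spread but stood apart from NTS. Across the series, with no test, the mean of NTS (3.52 TPM) was the lowest of the 24 groups, while that of DVC (16.6 TPM) ranked 9 of 24, so DVC was not high beside the other regions. Npff, the gene of the ligand neuropeptide FF, had 11.1, 11.8 and 9.40 TPM in DVC and 1.36, 0.995, 8.82 and 0.821 TPM in NTS. NTS 3 was close to the DVC libraries and the other NTS libraries were low, and the log2 fold change of 1.64 did not pass (adjusted p 0.26).

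Cartpt, the precursor of a peptide that curbs feeding, had 53.4, 35.5 and 51.6 TPM in DVC and 13.1, 16.5, 14.7 and 12.6 TPM in NTS. The groups stood well apart, and the log2 fold change was 1.58 (SE 0.15, adjusted p 0.00563). The call was lost with the replicate number as a block (adjusted p 0.058), with library numbers as a block (0.064), without DVC 1 and NTS 1 together (0.0858), and with the 57 adult libraries (0.0697) or all 70 libraries (0.112) in 1 model. Both values lie below those of several hypothalamic regions, where Cartpt averaged up to 314 TPM in the ventromedial nucleus. Olfr1062, an odorant receptor gene of low level, had 1.59, 2.26 and 1.34 TPM in DVC and 0.204, 0.144, 0.222 and 0.376 TPM in NTS (log2 fold change 2.80, adjusted p 0.0218). Its call was lost without DVC 1 (adjusted p 0.0881), DVC 2 (0.133), NTS 1 (0.08), NTS 2 (0.0824) or NTS 3 (0.0964). The other 8 higher genes, all outside the naming rule and named after their values were seen, were Bmt2, Celf6, Fxyd6, Cpne9, Mpp3, Cacnb3, Minar2 and Hpcal1. Their log2 fold changes ran from 0.45 for Hpcal1 to 0.80 for Bmt2. Of these 8, Cpne9 (log2 fold change 0.66, adjusted p 0.00654) alone was called without each of the 7 libraries in turn.

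**Figure D3:**
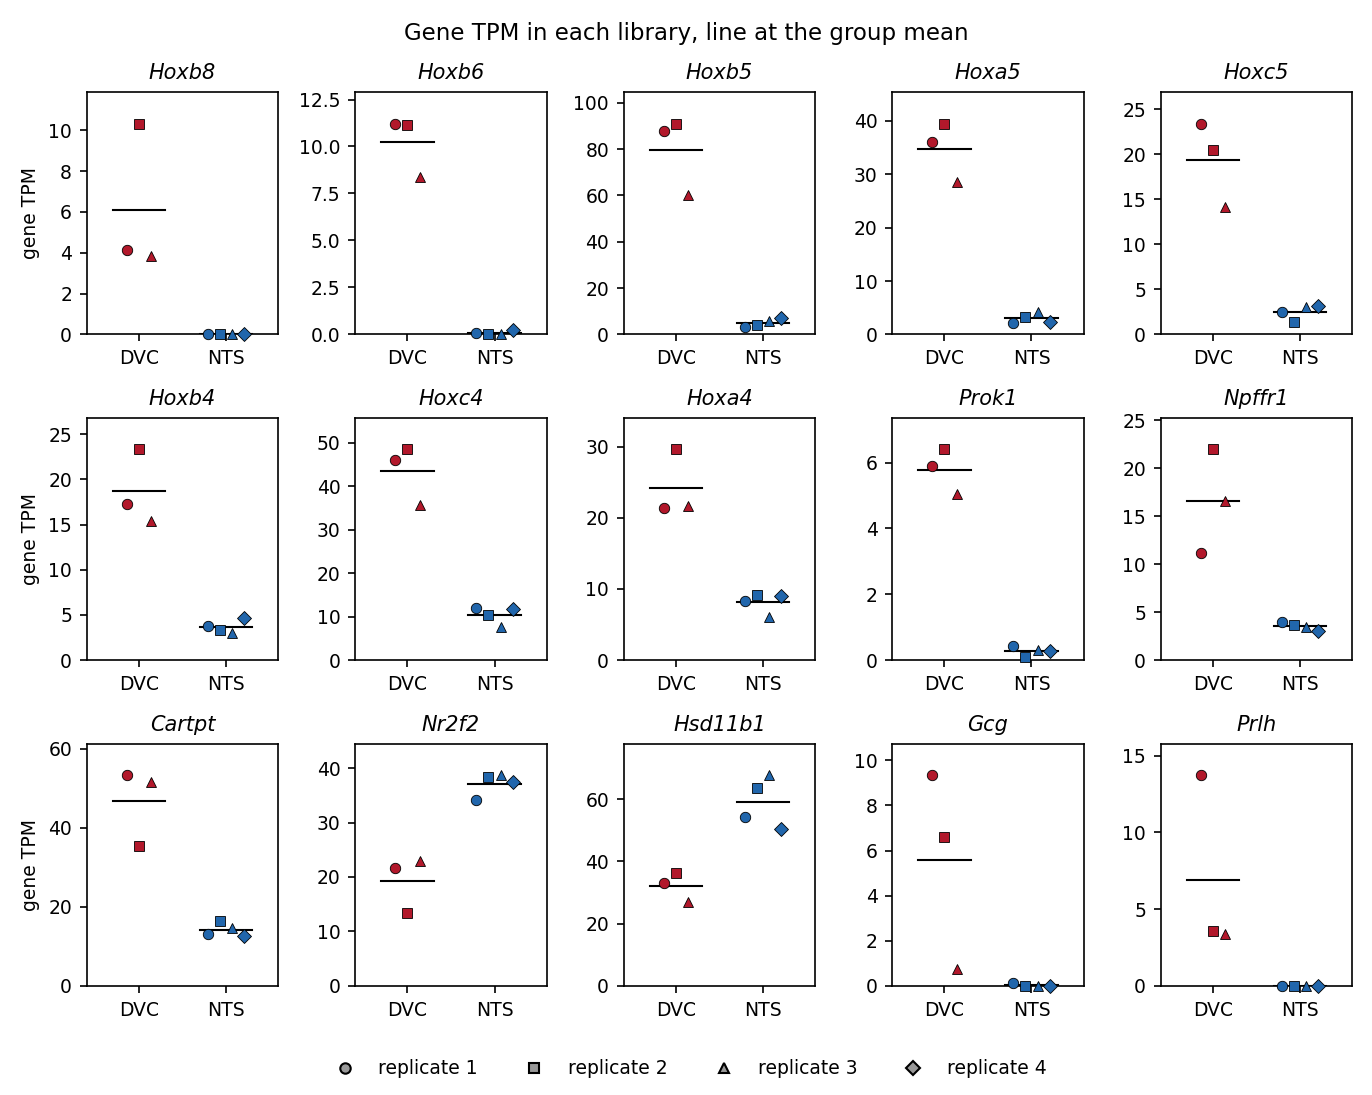
Gene TPM of 15 genes in each DVC (red) and NTS (blue) library, with the marker shape giving the replicate number and a line at the group mean. The groups do not overlap for any of the genes shown, and Nr2f2 and Hsd11b1 are the genes with DVC below NTS.

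Among the 5 lower genes, Nr2f2 encodes COUP-TFII, a nuclear receptor that acts as a transcription factor. It had 21.7, 13.3 and 23.0 TPM in DVC and 34.1, 38.3, 38.7 and 37.4 TPM in NTS. All NTS libraries were near one level and all DVC libraries below it (log2 fold change -0.97, SE 0.10, adjusted p 0.00563). Hsd11b1, which encodes the enzyme that regenerates active glucocorticoid, had 33.1, 36.1 and 26.9 TPM in DVC and 54.4, 63.4, 67.7 and 50.3 TPM in NTS (log2 fold change -0.998, SE 0.12, adjusted p 0.0153). Its groups did not overlap either, but the call was lost without DVC 1 (adjusted p 0.0881), DVC 3 (0.0743) or NTS 2 (0.0698). Tlr3, a receptor for double-stranded RNA, fell by 0.61 on the log2 scale (adjusted p 0.0382), and its call was lost without each of the 7 libraries in turn, at adjusted p values from 0.0545 without NTS 3 to 0.145 without NTS 2. Steap2, a metalloreductase, fell by 0.60 (adjusted p 0.0218), with its call lost without DVC 1 (0.0881), DVC 2 (0.119), NTS 1 (0.0608), NTS 2 (0.105) or NTS 3 (0.0811). Cyp26b1, an enzyme that breaks down retinoic acid, was chosen after its values were seen and did not pass (log2 fold change -1.43, adjusted p 0.0506), with 8.27, 8.58 and 16.3 TPM in DVC and 26.5, 28.3, 27.6 and 29.7 TPM in NTS.

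Gm15267 is a processed pseudogene inside the Smc1a locus on chromosome X. It had 0 counts in all DVC libraries and 8.54, 9.21, 17.7 and 12.1 TPM in NTS, or 135 counts in all, which is at least 34.0-fold lower in DVC at a floor of 3 counts over the group. It was called lower (adjusted p 0.0212), and not without DVC 1 (0.0589), DVC 2 (0.0614) or NTS 2 (0.0698). The call was also lost with the replicate number as a block (0.0911) and without DVC 1 and NTS 1 together (0.0923). With the 57 adult libraries or all 70 libraries in 1 model the adjusted p was 0.364 and 0.558. The same model was at 0 in 30 of the other 63 libraries of the series, among them all libraries of the entorhinal area and of the ventral tegmental area, so a value of 0 was not limited to DVC. Whether its reads come from the pseudogene or from Smc1a was not tested.

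The marker of the motor nucleus is Chat, the enzyme that makes acetylcholine. Chat had 45.3, 10.5 and 11.7 TPM in DVC 1, 2 and 3 and 3.50, 5.67, 6.92 and 4.51 TPM in NTS 1, 2, 3 and 4. Every DVC library was above every NTS library, and DVC 1 stood far above the other DVC libraries. The log2 fold change was 2.06 (SE 0.51), which did not pass (adjusted p 0.16 by edgeR's quasi-likelihood test with Benjamini-Hochberg adjustment). Without DVC 1 it was 1.04 (adjusted p 0.183). An exact permutation test of the mean TPM, with its two-sided p taken as the smaller tail times 2, gave p = 0.0571. That is the smallest value this form of the test allows over the 35 assignments of 3 and 4 libraries, so it could not pass 0.05. Chat passed the threshold with DESeq2 (log2 fold change 2.06, adjusted p 0.0436), while over all alternatives the adjusted p ranged from 0.0436 to 0.563.

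The partners of Chat were also highest in DVC 1. Slc18a3, the vesicular acetylcholine transporter encoded inside the Chat locus, had 77.7, 17.3 and 15.9 TPM in DVC and 3.81, 6.81, 11.4 and 5.97 TPM in NTS. Slc5a7, the choline transporter, had 79.9, 15.2 and 16.1 TPM in DVC and 7.15, 9.85, 12.1 and 11.1 TPM in NTS. Prph, an intermediate filament of neurons with peripheral axons, had 148, 38.9 and 31.7 TPM in DVC and 6.84, 11.3, 19.7 and 11.3 TPM in NTS. For each of these genes DVC 1 was the highest library, DVC 2 and DVC 3 came next, and no NTS library reached them. The log2 fold changes were 2.34 for Slc18a3, 1.82 for Slc5a7 and 2.50 for Prph, and none passed with edgeR (adjusted p 0.167, 0.226 and 0.137), while Prph passed with DESeq2 (adjusted p 0.0185). Without DVC 1 they were 1.18, 0.57 and 1.45 (adjusted p 0.251, 0.294 and 0.183). Isl1, a motor neuron transcription factor, had 3.33, 1.00 and 0.442 TPM in DVC and 0.394, 0.248, 1.24 and 0.241 TPM in NTS, so its groups overlapped (log2 fold change 2.27, adjusted p 0.293, and 0.59 without DVC 1).

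**Figure D4:**
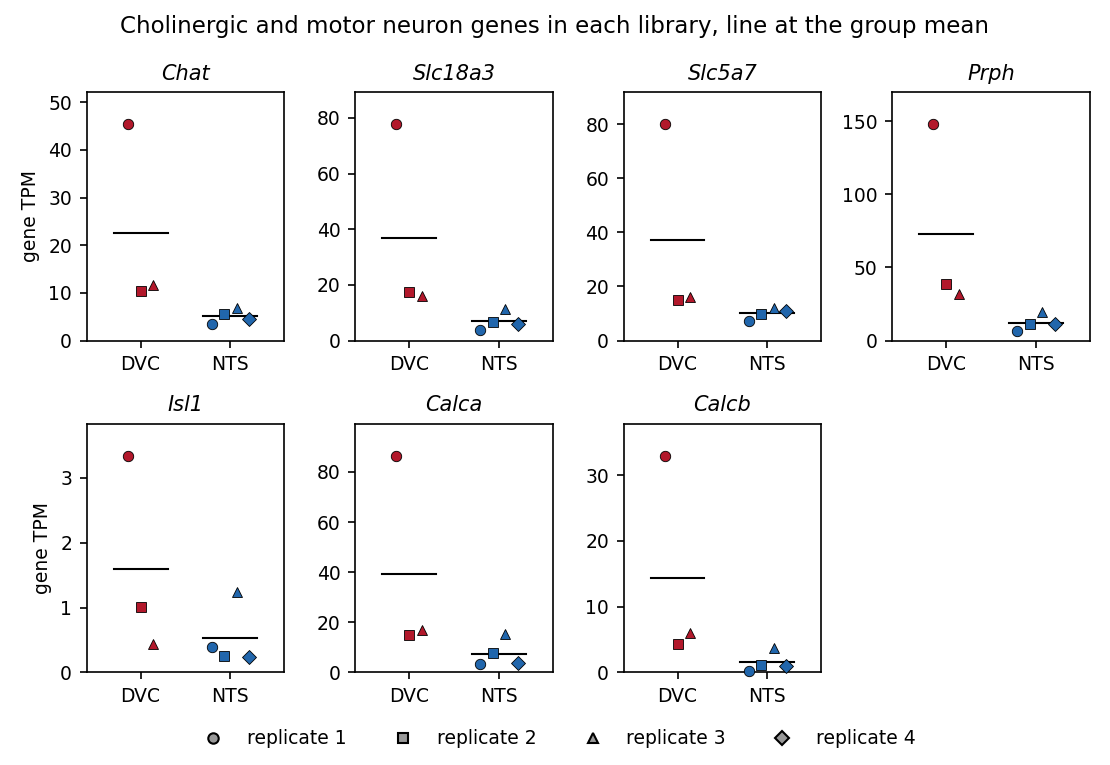
Gene TPM of 7 cholinergic and motor neuron genes in each DVC (red) and NTS (blue) library, with the marker shape giving the replicate number and a line at the group mean. DVC 1 is the highest library for every gene shown.

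Over the list of 16 cholinergic genes, 15 were tested, and 0 were called by edgeR in either direction, 12 had an unadjusted p under 0.05 and DESeq2 called 6 higher (1.33% over all genes). edgeR called 1 higher with the 57 adult libraries in 1 model and 1 with all 70. The groups did not overlap, with DVC above, for 8 of the 15 tested genes, beside 10.8% over all tested genes with a TPM. The median log2 fold change was 1.82 with all libraries and 0.81 without DVC 1, beside 0.0038 over all genes. Summed TPM of the list was 843, 457 and 450.0 in DVC 1, 2 and 3 and 305, 361, 357 and 306 in NTS 1, 2, 3 and 4. DVC 1 was again far above the rest, and DVC 2 and DVC 3 were above every NTS library. The most abundant gene was Ache, which hydrolyses acetylcholine and is not limited to cholinergic neurons, with a mean of 277 TPM in DVC and 226 TPM in NTS. Calca and Calcb, genes of the calcitonin gene-related peptides found in motor neurons, had log2 fold changes of 2.96 and 3.30 and did not pass (adjusted p 0.217 and 0.164), and DVC 1 had 86.2 and 32.9 TPM of them against at most 17.0 and 5.93 TPM in the other DVC libraries. Mnx1, a factor of somatic motor neurons, had 3.86 TPM in DVC 1 and at most 0.477 TPM in any other of the 7 libraries. The part that motor neurons of a neighbouring nucleus play in DVC 1 was not tested.

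Across the series, cholinergic RNA was not limited to DVC. Chat averaged 32.6 TPM in the parabrachial nucleus, 22.5 TPM in DVC, 9.91 TPM in the nucleus accumbens and 5.15 TPM in NTS. For Chat the spread of DVC (lowest 10.5, highest 45.3 TPM) covers the parabrachial libraries.

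Several markers of the area postrema were near or below a few TPM in both regions. Gfral, the receptor of the stress hormone GDF15, had 0.292, 0.137 and 0.466 TPM in DVC and 0.119, 0, 0.108 and 0.052 TPM in NTS, and had too few counts to be tested. Every DVC library was above every NTS library, by a margin of a few counts. Calcr, the calcitonin receptor, had 1.16, 1.40 and 0.873 TPM in DVC and 0.791, 1.16, 1.09 and 0.917 TPM in NTS, with mixed libraries (log2 fold change 0.13, adjusted p 0.873). Ramp3, which turns that receptor into an amylin receptor, had 2.21, 3.61 and 1.98 TPM in DVC and 1.49, 0.866, 0.488 and 1.03 TPM in NTS. Its groups did not overlap, and the log2 fold change of 1.38 did not pass (adjusted p 0.221). Glp1r, the receptor of glucagon-like peptide 1, had 3.50, 2.33 and 3.96 TPM in DVC and 1.58, 2.89, 1.26 and 1.82 TPM in NTS, with an overlap at NTS 2 (log2 fold change 0.72, adjusted p 0.414). Plvap, a protein of fenestrated capillaries such as those of the area postrema, was 7.67, 9.96 and 10.2 TPM in DVC and 14.0, 9.54, 8.47 and 8.25 TPM in NTS, with no sign of a higher level in DVC (log2 fold change -0.18, adjusted p 0.76). It was highest in NTS 1, and without NTS 1 the log2 fold change was 0.01.

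Of the 12 area postrema genes, 10 were tested, with 0 called in either direction by edgeR, 3 at an unadjusted p under 0.05 and 2 called higher by DESeq2. Without NTS 4 edgeR called 1 higher, which was Lypd1. For 3 of the 10 the groups did not overlap, with DVC above, beside 10.8% over all genes. The median log2 fold change was 0.34, and it ranged from 0.27 to 0.45 when single libraries were left out. It was 0.14 with the 57 adult libraries in 1 model, 0.13 with all 70, 0.13 with genes of a mean of at least 1 TPM and 0.54 with DESeq2. Summed TPM was 66.0, 75.4 and 70.6 in DVC and 50.1, 54.9, 49.5 and 53.3 in NTS, most of it from Lypd1 (means of 47.3 and 30.7 TPM). Lypd1 is also high elsewhere in the brain, at 162 TPM in the nucleus accumbens. The separate list of 8 fenestrated endothelium genes had 7 tested, 0 called, 0 at an unadjusted p under 0.05 and a median of -0.14 (-0.03 without NTS 1). Its mean sum was 200.1 TPM in DVC and 200.02 TPM in NTS.

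Of the peptide genes of visceral neurons, 1 of 19 tested was called higher in DVC, beside 0.129% over all genes, which was Cartpt. Gcg, which yields glucagon-like peptide 1 in neurons of the caudal NTS, had 9.34, 6.58 and 0.763 TPM in DVC 1, 2 and 3. In NTS it had 0.108 TPM in NTS 1 and 0 in NTS 2, 3 and 4. All DVC libraries held Gcg, DVC 3 far less than the others, and NTS held a single count. The sums were 127 counts in DVC and 1 in NTS, a ratio of 168 with a 95% exact interval of 29.5 to 6670, for counting error only. Gcg did not pass the filter on counts, and the same exact two-sided permutation test of its TPM gave p = 0.0571, the smallest value it allows. Across the series DVC had the highest mean (5.56 TPM), followed by embryonic hindbrain (1.12 TPM), and the highest other adult region, the uvula, had 0.174 TPM. Prlh, the gene of prolactin-releasing peptide, was chosen after its values were seen and had 13.7, 3.57 and 3.39 TPM in DVC and 0 in all 4 NTS libraries. With 19 counts in DVC it is at least 8.36-fold higher there, and DVC 1 holds most of its TPM.

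Penk, the enkephalin precursor, had 276, 384 and 292 TPM in DVC and 133, 90.9, 91.8 and 152 TPM in NTS. The groups stood apart, and the log2 fold change of 1.37 just missed the threshold (adjusted p 0.0543). Gal, the precursor of galanin, had 64.1, 27.6 and 25.7 TPM in DVC and 4.22, 11.04, 7.71 and 5.56 TPM in NTS (log2 fold change 2.39, adjusted p 0.0789). DVC 1 was highest here too, with the other DVC libraries still above all of NTS. Npy and Pdyn, precursors of neuropeptide Y and the dynorphins, had log2 fold changes of 1.28 and 1.77 without overlap of the groups and did not pass (adjusted p 0.131 and 0.189). These genes are members of the peptide list and were picked from it after their values were seen. Pomc, the melanocortin precursor, was near 3 TPM in both regions, with 3.06, 3.90 and 2.89 TPM in DVC and 3.31, 1.65, 2.06 and 3.22 TPM in NTS (log2 fold change 0.34, adjusted p 0.72).

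Of the 24 listed peptide genes, 19 were tested, and Cartpt alone was called (1 higher, 0 lower, beside 0.129% and 0.0323% over all genes), 13 had an unadjusted p under 0.05 and DESeq2 called 7 higher. The number called higher was 2 without DVC 3, 2 without NTS 3 and 2 without NTS 4. It was 0 with either block and 0 without DVC 1 and NTS 1 together, but 4 with no filter on low counts, 5 with the 57 adult libraries in 1 model and 3 with all 70. Of the 19 genes, 16 had a log2 fold change above 0 and 3 below. The groups did not overlap, with DVC above, for 9 of the 19 tested genes (10.8% over all tested genes with a TPM) and for 12 of all 24. The median log2 fold change was 0.74 and ranged from 0.55 to 0.77 when single libraries were left out. Summed TPM was 1181, 1341 and 1269 in DVC and 754, 793, 589 and 722 in NTS, so no NTS library came near a DVC library. The most abundant gene of the list was Sst, the somatostatin precursor, at means of 510.4 and 371 TPM.

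Of 39 receptors that regulate feeding, 34 were tested, 0 were called by edgeR, 8 had an unadjusted p under 0.05, and the median log2 fold change was 0.13. DVC stood above NTS without overlap for 7 of the 34, beside 10.8% over all genes. Summed TPM was 715, 720 and 749.7 in DVC and 696, 674, 659.7 and 646 in NTS, without overlap, on the TPM scale that leans to DVC. Cckar, the cholecystokinin receptor of vagal and hindbrain neurons, had 2.54, 2.40 and 2.43 TPM in DVC and 1.30, 0.907, 0.967 and 1.52 TPM in NTS. The groups did not overlap, and the log2 fold change of 1.01 did not pass with edgeR (adjusted p 0.137) but did with DESeq2 (adjusted p 0.0312). Lepr, the leptin receptor, had 1.72, 3.23 and 5.91 TPM in DVC and 3.72, 1.86, 1.30 and 3.21 TPM in NTS, with fully mixed libraries (log2 fold change of the counts -0.23, adjusted p 0.874). The mean TPM points the other way, with 3.62 in DVC and 2.52 in NTS, and without NTS 1 the sign of the counts turned too, to 0.40. Mc4r, the melanocortin 4 receptor, had 4.47, 5.97 and 5.06 TPM in DVC and 4.29, 4.56, 2.79 and 5.44 TPM in NTS, again mixed (log2 fold change 0.22, adjusted p 0.737). The 9 genes of monogenic obesity had 8 tested, 0 called, 1 at an unadjusted p under 0.05 and a median of 0.15 (0.07 without NTS 3, 0.27 without NTS 1), and 181 tested genes of the 190 linked to obesity had 0 called, 25 at an unadjusted p under 0.05 (12.3% over all genes) and a median of 0.01. Among those 181 genes the groups stood apart with DVC above for 27 and with DVC below for 3, beside 10.8% and 2.53% over all genes.

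Of 13 catecholamine genes, all tested, 0 were called. Th, the first enzyme of catecholamine synthesis, had 10.4, 7.69 and 13.5 TPM in DVC and 7.41, 21.5, 7.00 and 6.50 TPM in NTS. Dbh, which makes noradrenaline, had 9.63, 7.62 and 8.88 TPM in DVC and 3.38, 20.7, 6.71 and 3.45 TPM in NTS. NTS 2 was the highest of the 7 libraries for both, and the DVC libraries lay within the range of NTS. The log2 fold changes were 0.02 for Th and -0.03 for Dbh (adjusted p 0.987 and 0.988), and without NTS 2 they were 0.53 and 0.88. Over the list 1 gene had an unadjusted p under 0.05 and the median was 0.00. Of 5 serotonin genes, 2 were tested and 0 called (median 0.35, and -0.10 without DVC 1), with 0 at an unadjusted p under 0.05 and summed TPM of 12.3, 11.8 and 8.71 in DVC and 7.53, 7.79, 7.58 and 9.78 in NTS.

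Of 12 genes of fast transmitters, all tested, 6 had a log2 fold change above 0 and 6 below, and 0 were called. Slc17a6, the glutamate transporter of most brainstem neurons, had 114, 118 and 132 TPM in DVC and 146, 135, 136 and 137 TPM in NTS, so DVC was slightly lower in each library (log2 fold change -0.20, adjusted p 0.372). Slc17a7, another glutamate transporter, had 49.5, 60.3 and 50.5 TPM in DVC and 27.2, 24.5, 37.6 and 27.2 TPM in NTS (log2 fold change 0.81, adjusted p 0.101), chosen after its values were seen. Slc32a1, the transporter that loads GABA and glycine into vesicles, had 142, 209.9 and 160.4 TPM in DVC and 152, 175, 172 and 156 TPM in NTS, with mixed libraries (log2 fold change 0.00, adjusted p 0.999). Slc6a5, the glycine transporter of inhibitory neurons, had 111, 143 and 103 TPM in DVC and 137, 144, 149 and 156 TPM in NTS (log2 fold change -0.36, adjusted p 0.257), with DVC 2 inside the range of NTS. Mean Slc6a5 was higher in NTS and DVC (147 and 119 TPM) than in the next region, the cerebellar nuclei (38.1 TPM). Over the 12 genes of the list, 5 had an unadjusted p under 0.05 and the median was -0.04. DVC stood above NTS without overlap for 2 of them and below for 1, beside 10.8% and 2.53% over all genes.

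Of 39 hindbrain transcription factors outside the Hox clusters, 37 were tested, 0 were called by edgeR, 11 had an unadjusted p under 0.05 and the median log2 fold change was 0.13 (0.07 without DVC 2, 0.20 without DVC 1). DVC stood above NTS without overlap for 5 of the 37, beside 10.8%. Their summed TPM was 590.3, 597 and 591 in DVC and 531, 544, 529 and 554 in NTS, without overlap, on the TPM scale that leans to DVC. A difference between this list and the Hox genes was not tested. Meis2, a partner of Hox proteins, was the most abundant at means of 201 and 188 TPM.

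Of 14 myelin and oligodendrocyte genes, 0 were called by edgeR. Mbp, the most abundant myelin gene, had 5491, 5619 and 5547 TPM in DVC and 6188, 6864, 8361 and 6914 TPM in NTS. All DVC libraries lay below all NTS libraries, and the log2 fold change of -0.41 did not pass with edgeR (adjusted p 0.159) but did with DESeq2 (adjusted p 0.00303). All 14 genes were tested, and all 14 had a log2 fold change below 0, with a median of -0.35 that ranged from -0.41 to -0.25 when single libraries were left out. Of the 14, 11 had an unadjusted p under 0.05 (12.3% over all genes). DESeq2 called 9 lower (1.1% over all genes), and every other alternative called 0. The groups did not overlap, with DVC below, for 8 of the 14, beside 2.53% over all genes. Summed TPM was 11656, 11389 and 11485 in DVC and 12650, 13791, 16497 and 13960 in NTS. The part of fibre tract in the NTS punches was not tested. The list of 14 genes of fast projection neurons had a median of -0.21 (-0.31 without DVC 1, -0.11 without DVC 3), with 14 tested, 0 called and 4 at an unadjusted p under 0.05, and its summed TPM overlapped between the groups.

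**Figure D5:**
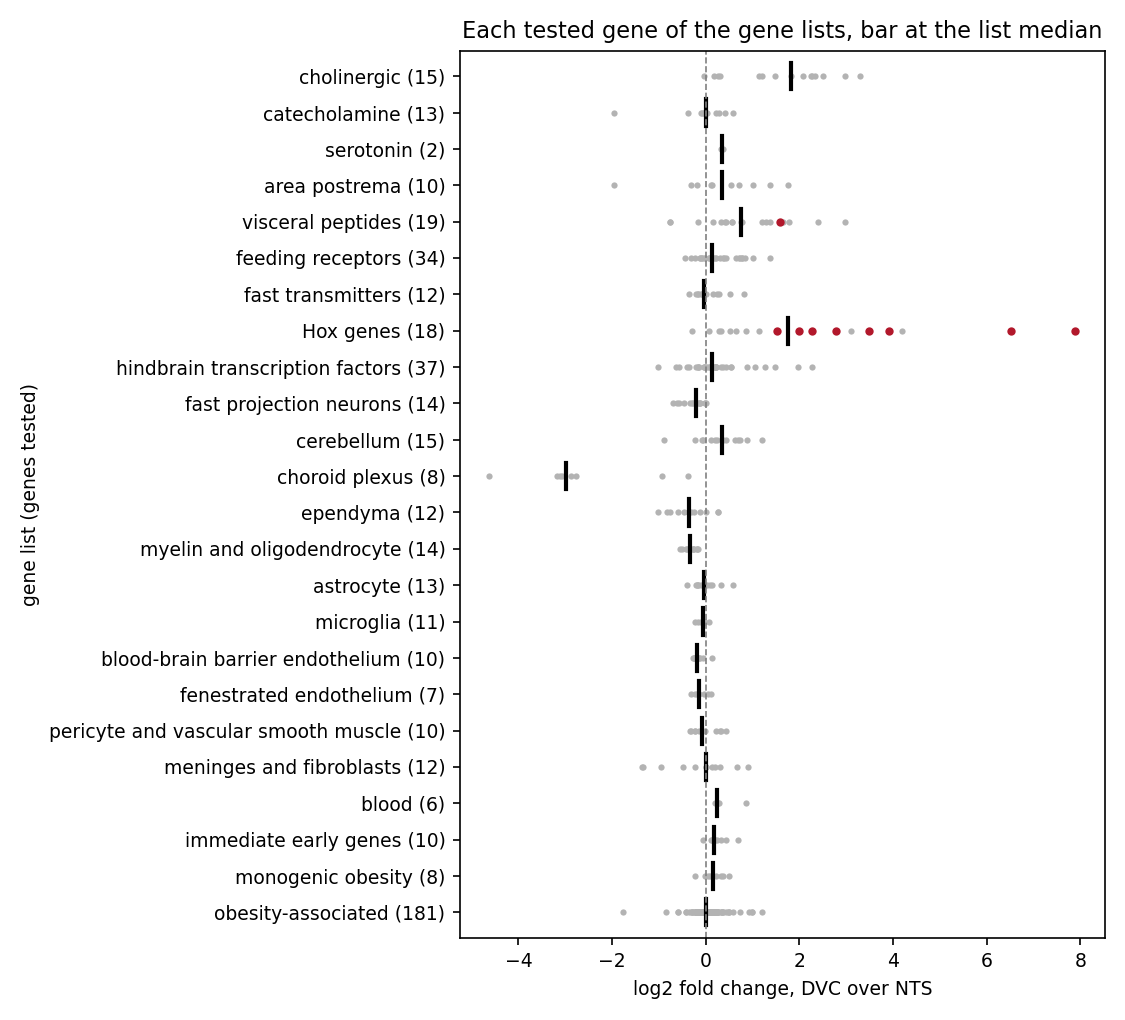
Log2 fold change of DVC over NTS (edgeR) for each tested gene of the 24 gene lists, with genes called at adjusted p under 0.05 in red, a bar at the list median and a dashed line at the median of all genes (0.0038). The called genes are 8 Hox genes and Cartpt, and the choroid plexus list rests on NTS 1.

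Choroid plexus RNA set 1 library apart. Ttr, the main secreted protein of the choroid plexus, had 273, 1.08 and 52.5 TPM in DVC 1, 2 and 3 and 10330.5 TPM in NTS 1, but 10.7, 3.85 and 2.47 TPM in NTS 2, 3 and 4. Its log2 fold change was -4.62 (adjusted p 0.562) with all libraries and 4.17 without NTS 1. The 13 choroid plexus genes had 8 tested, 0 called, 0 at an unadjusted p under 0.05 and a median of -2.98, which became 0.42 without NTS 1. Summed TPM of the list was 311, 19.9 and 74.9 in DVC and 10928, 27.8, 20.4 and 21.5 in NTS. The choroid plexus of the fourth ventricle lies next to both regions, and how much of it each punch held was not tested. Hoxb5, Hoxa5 and Prok1 were called without NTS 1 as with it.

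Markers of other neighbouring and supporting tissue had 0 calls by edgeR. Pcp2, a gene of Purkinje cells in the cerebellum above, had 2.88, 4.16 and 9.30 TPM in DVC and 6.84, 13.7, 9.30 and 5.55 TPM in NTS, with mixed libraries (log2 fold change -0.89, adjusted p 0.402). Of 16 cerebellum genes, 15 were tested, 0 were called, 4 had an unadjusted p under 0.05 and the median was 0.34, with Cbln1 the most abundant (49.7 and 44.3 TPM). Medians were -0.35 for 12 ependyma genes, -0.05 for 13 astrocyte genes, -0.07 for 11 microglia genes, -0.19 for 10 genes of blood-brain barrier endothelium and -0.08 for 10 genes of pericytes and smooth muscle, all tested. They were 0.01 for 12 genes of meninges and fibroblasts and 0.25 for 6 blood genes, all tested, and 0.18 for the 10 tested of 11 immediate early genes. edgeR called 0 genes in each of these lists. At an unadjusted p under 0.05 there were 3 astrocyte genes, 4 endothelial genes, 4 pericyte and smooth muscle genes and 1 immediate early gene, and 0 in the other lists named here. Without NTS 1 the median of the ependyma list was 0.42, and without DVC 1 that of the blood list was -0.07, so each sign rested on 1 library. The median of the meninges list ran from -0.22 without DVC 1 to 0.25 without NTS 1, and that of the immediate early genes from 0.06 without DVC 2 to 0.31 without DVC 1. Of the 10 tested immediate early genes, 3 stood apart with DVC above, as did 3 of the 15 cerebellum genes, beside 10.8% over all genes. With DVC below, 2 of the 10 pericyte and smooth muscle genes and 1 of the 10 barrier endothelium genes stood apart, beside 2.53%. Other medians near 0 moved by more than their size too, such as that of the astrocytes (-0.12 without DVC 3, -0.01 without NTS 3).

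In the lists with 0 calls by edgeR, other tools gave more calls or as few. DESeq2, which called 1.33% of all genes higher and 1.1% lower, called 2 cerebellum genes, 2 feeding receptors and 1 gene of fast transmitters higher, and 3 genes of fast projection neurons, 1 of barrier endothelium and 1 of pericytes and smooth muscle lower. It called 2 hindbrain transcription factors higher and 1 lower, and 3 obesity-linked genes higher and 2 lower. In the lists of catecholamine, serotonin, choroid plexus, ependyma, astrocyte, microglia, fenestrated endothelium, meninges, blood, immediate early and monogenic obesity genes it called 0. limma on log2 TPM called 0 genes in each list where edgeR called 0. Other edgeR fits called 1 gene of fast transmitters higher without NTS 3, 1 choroid plexus gene higher with library numbers as a block, 1 hindbrain transcription factor higher with no filter on low counts and 1 without DVC 3. Of the obesity-linked genes they called 1 lower with the 57 adult libraries, 1 lower with all 70 and 1 higher without DVC 3. Of the most abundant genes of lists not yet named, Cyb561 of the catecholamine list had a mean of 44.8 TPM in DVC and 44.4 TPM in NTS, and Htr1a of the serotonin list had 9.13 and 6.95. For the supporting cells the means in DVC and NTS were 2360.3 and 2424 TPM for Aldoc (astrocytes), 48.1 and 47.1 for Vim (ependyma), 129 and 148 for Ly6c1 (barrier endothelium), 107 and 106 for Plpp3 (fenestrated endothelium), 79.9 and 85.5 for Vtn (pericytes), 1633 and 1547 for Ptgds (meninges) and 848 and 694 for Hba-a1 (blood). Their groups overlapped in each case.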

How the data were processed

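RNA from punches of DVC (3 libraries) and NTS (4) was sequenced as single reads. Transcript counts were estimated by the authors with kallisto on GRCm38 after CASAVA 1.8.2 (version from the submitters' processing notes; that of kallisto is in the study's methods). These deposited estimated counts (expected counts) are not normalized between libraries. The deposited gene TPM were summed by the authors over transcripts and scaled within each library. Here counts were summed per gene with release 21 of the GENCODE mouse annotation (98.8% of transcripts matched) and rounded. The 7 libraries, with 15842811 to 19999209 counts, were tested with the quasi-likelihood test of edgeR 4.0.16 under R 4.3.3 (TMM factors, low counts filtered by filterByExpr, Benjamini-Hochberg adjustment), and genes were called at adjusted p under 0.05. The test was tested on simulated data, where it missed some of the genes made to differ and called some made alike. Counts covered 332 tested genes that have no gene TPM, which were left out of TPM comparisons.

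Alternatives were DESeq2 1.42.0, its size factors in edgeR, no filter, a mean of at least 1 TPM, limma 3.58.1 on log2 TPM after adding 0.5 or 0.1, 57 adult or all 70 libraries in 1 model, no mitochondrial genes, the replicate number or consecutive library numbers as a block, an absolute log2 fold change above 1, and leaving out each library. Leaving out DVC 1 and NTS 1 together was chosen after seeing the data. Replicate numbers were not taken as pairs in the main test. The deviations of DVC and NTS libraries with the same number correlated across genes at 0.155, 0.077 and 0.005. The first lies above the threshold of 0.1 set for pairing and the others below it. DVC 3 and NTS 4, of unlike number, gave 0.13. These values cannot show whether pools share mice, and the replicate number as a block left 6 calls.

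Named genes were the up to 12 called genes with the largest fold change in each direction that had a mean of at least 1 TPM and no overlap between groups, up to 4 called genes per list, 25 genes named whatever their values, and the most abundant gene of each cell type list. Results for some of these genes are not reported here. The members, taken by label, and the 24 gene lists (27 Hox genes, and lists of cell types, transmitters, peptides, receptors and obesity genes) were chosen with earlier results of these data known. Other steps used Python 3.11.15 with pandas 2.3.3, NumPy 2.4.6 and SciPy 1.17.1, and Matplotlib 3.10.9 drew the figures.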

Additional observations from a re-analysis of the deposited data

Results flagged for a closer look

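Values of the NTS libraries were screened for a library far from the other 3, by Dixon's ratio of the gap to the range at its 95% critical value, and 12 of 95 values passed it. Chance passes about 1 in 20 such groups when the values are independent and normally distributed. That does not hold here, since some sums hold genes that were screened too. A gene at 0 in all but 1 library passes by construction. The number that passed is therefore no measure of an excess. The 3 DVC libraries are too few for this screen, so the high values of DVC 1 are not covered by it.

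NTS 1 was far above the others in Ttr (10330.5 TPM) and in the summed TPM of the choroid plexus list (10927.9), which holds Ttr. NTS 2 was far above in Th (21.5 TPM), in the sum of the catecholamine list (173.66), which holds Th, and in the sum of the pericyte and smooth muscle list (253.27). NTS 3 was far above in Npff (8.82 TPM), Isl1 (1.24 TPM), Ptgds (2269.8 TPM) and Hoxb8 (0.0418 TPM). NTS 4 was far above in the share of TPM from mitochondrial genes (12.4%) and in the sum of the serotonin list (9.78). NTS 1 was the only NTS library with any Gcg (0.108 TPM). The values of Hoxb8 and Gcg rest on 1 count each. The causes of these values were not tested.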

How the results depend on the processing

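All 25 called genes kept their direction in each of the 19 alternative fits that tested them, and 11 were called without each of the 7 libraries in turn (Cartpt, Cpne9, Hoxa5, Hoxb4, Hoxb5, Hoxb6, Hoxc4, Hoxc5, Npffr1, Nr2f2 and Prok1). Hoxb5 alone was called in all 19.

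The number of calls depended on the processing. Against 25 calls (20 higher, 5 lower, 9 in gene lists), DESeq2 gave 384 (210 higher, 174 lower, 52 in lists) and edgeR with no filter on low counts gave 43 (35 higher, 8 lower, 14 in lists). limma with a pseudocount of 0.1 gave 15 (1 lower), of which 12 were among the 25 calls. limma with 0.5 gave 17 (1 lower), of which 13 were among them. The 57 adult libraries in 1 model gave 33 (25 higher, 8 lower), of which 10 were among the 25 calls. All 70 libraries in 1 model gave 21 (15 higher, 6 lower), of which 7 were among them. A fold change rule gave 13 (12 higher, 1 lower), fewer by construction. The replicate block gave 6 (6 higher, 0 lower), namely Hoxa4, Hoxa5, Hoxb4, Hoxb5, Hoxb6 and Hoxc4. The library number block gave 11 (10 higher, 1 lower). Without DVC 1 and NTS 1 together, chosen after seeing the data, there were 3 (3 higher, 0 lower, 2 in lists), with fewer samples. Leaving out 1 library gave 12 to 44 calls, 11 to 40 higher and 1 to 4 lower. Calls in gene lists were then 8 to 12. For the other settings the cause was not tested.

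Cckar, Mbp and Prph passed with DESeq2 but not edgeR, as did Chat (log2 fold change 2.06), which had 1.04 to 2.41 without single libraries.

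Genes that changed sign had all missed the threshold. With limma at pseudocounts of 0.1 and 0.5, Dbh was 0.44 and 0.40 and Lepr 0.45 and 0.39. With the replicate block Dbh was 0.02 and Th -0.09. With the library number block Lepr was 0.40, Plvap 0.01 and Ttr 3.10. Without DVC 1 and NTS 1 together, Lepr was 0.40, Plvap 0.13, Th -0.14 and Ttr 2.13. Without single libraries the ranges were -0.07 to 0.33 for Calcr, -0.31 to 0.88 for Dbh and -0.43 to 0.40 for Lepr. They were -0.26 to 0.01 for Plvap, -0.19 to 0.11 for Slc32a1, -0.19 to 0.53 for Th and -6.70 to 4.17 for Ttr. The cause was not tested.

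Depth limits genes of a few counts, such as Gfral, Hoxb7 and Prlh, which were not tested.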

Other observations

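Some limits bear on the comparison as a whole. By the supplement's drawings the punches differ in the level of the section as well as in the nuclei they hold, and these cannot be told apart. Each library is a pool of mice that the labels do not name, and some of the pools share mice. DVC 1 held the most cholinergic RNA and NTS 1 the most choroid plexus RNA. For 314 gene names in the tables, transcript TPM summed here differed from the deposited gene value by more than 0.05 TPM and more than 1% in a DVC or NTS library.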
